A study of Mus musculus with 4 samples.

Results

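Amino acid catabolic enzymes break down the amino acids that are not used to build protein, and 51 of them are described here among the 32285 mouse genes counted in liver nuclei. The enzymes were listed by gene symbol and sorted by the amino acid they act on: 4 for histidine, 2 for serine, 6 for tyrosine, 6 for tryptophan, 3 for lysine, 5 for glycine, 15 for the branched-chain amino acids, 3 for proline, and 7 transaminases and other enzymes that release or move amino nitrogen. No measured value entered the choice of groups. Single-nucleus RNA-seq counted RNA molecules per gene in each nucleus through unique molecular identifiers (UMIs). The nuclei came from frozen livers of Bl/6 mice. No age is given for these mice in particular, and the general methods name males 6 to 8 weeks old where not stated otherwise. There were 4 groups of 1 library each. On chow diet (CD) the labels name a control and an oncogene library, and on low-protein diet (LPD) likewise. Diets started 1 week before injection and went on for the 2 weeks that followed it. The oncogene groups received plasmids for human c-MET and an N-terminally truncated β-catenin, and the Sleeping Beauty transposase that inserts them into the genome, by hydrodynamic tail vein injection, and the controls, per the study, a vector. Such an injection reaches only some of the hepatocytes, so that most nuclei of an injected liver carry no transgene. How many mice stand behind each library is not given in the sources used here.

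Breakdown of most amino acids begins with loss of the amino group. Transaminases pass it to 2-oxoglutarate, glutamate dehydrogenase frees it as ammonia, and the urea cycle disposes of it, while dedicated enzymes split histidine, serine and glycine directly. The remaining carbon skeletons feed gluconeogenesis, ketogenesis or the citric acid cycle. In the liver lobule blood flows from the portal tracts to the central vein. Periportal hepatocytes are known for gluconeogenesis and urea synthesis, and pericentral hepatocytes, which are under Wnt/β-catenin control, for capture of leftover ammonia as glutamine. Branched-chain amino acids differ from the others in that their first transamination takes place largely outside the liver.

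UMIs of the human transgenes serve as a check of the labels. On CD, 100 were found in the control-labelled library and 0 in the oncogene-labelled one, the reverse of what the labels say. On LPD, the control library had 0 and the oncogene library 6. In the study, the CD vector group has more nuclei than the CD oncogene group. Its LPD vector group has fewer than its LPD oncogene group. Here the order on CD was reversed, with 10397 nuclei kept under the control label and 12552 under the oncogene label. For LPD the order was the same, at 9825 and 10103. Whether the CD labels were exchanged was not tested. Groups are kept as labelled, and every direction between the CD libraries depends on which label is right. The hepatocyte class held 7978, 9673, 7750 and 6826 nuclei in the order control and oncogene on CD, then control and oncogene on LPD, which is kept for all lists of 4 values below. Their median depth was 4791, 4048, 2245 and 2281.5 UMIs. Whole libraries held 23172463 to 62869348 UMIs, and the LPD libraries were the shallower ones. Between 18 and 40 cell barcodes were shared by any 2 libraries. Levels are given as CPM, the UMIs of a gene over all hepatocyte nuclei together, scaled to the same total in each library. The β-catenin target Glul was at 362, 71.4, 147 and 217 CPM, higher within each diet where transgene UMIs were found. Axin2, another such target, was at 23.8, 6.21, 10.2 and 6.17 CPM, which goes the same way on CD and the other way on LPD.

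All 51 enzymes had UMIs in hepatocytes of every library, at 4.99 to 2650 CPM. In all 4 libraries 45 of them were higher in hepatocytes than in the other nuclei, against 41.5% of the 7255 genes above the filter on low values. The median fold over the 51 enzymes was 1.86 in the library where it was lowest and 2.67 where it was highest. At 2-fold or more in all 4 libraries there were 13 enzymes, against 7.44% of those genes. Nuclei of other types also held these transcripts. Hal stood at 119.5, 258, 106 and 27.3 CPM in the other nuclei and at 274, 488, 369 and 100.3 CPM in hepatocytes. The part of free RNA in the other nuclei was not tested. Of the 51 enzymes, 6 were higher in the other nuclei in at least 1 library. Sdsl, Amt, Dld, Bckdk, Auh and Acadsb were these genes.

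Zonation was examined by ranking hepatocyte nuclei within each library on 17 zone marker genes, none of them an enzyme of the list, and by splitting the ranked nuclei into 3 zones of equal size, a periportal, a middle and a pericentral one. Because every library contributed all 3 zones, the 4 libraries served as replicates. Held-out markers followed the ranking: Glul, which makes glutamine, was higher in the pericentral zone by 4.51 ± 0.88 (mean ± SD of log2 ratios, n = 4) and Asl of the urea cycle higher in the periportal zone by 1.13 ± 0.13. Of the 51 enzymes, 17 were higher in the periportal zone and 9 in the pericentral zone (edgeR quasi-likelihood test with library as a block, Benjamini-Hochberg adjusted p under 0.05 over 13235 genes). Across all genes tested, 11.3% were called periportal and 10.6% pericentral, 21.9% in all, against 26 of the 51 enzymes. At 2-fold or more there were 9 periportal enzymes and 1 pericentral one, where all genes gave 2.83% and 2.62%. Of the 26 called enzymes, 25 lay on the same side in all 4 libraries, the exception being Kmo. No call was made for 25 enzymes, whose fitted log2 ratios lay between -0.13 and 0.48.

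**Figure D1:**
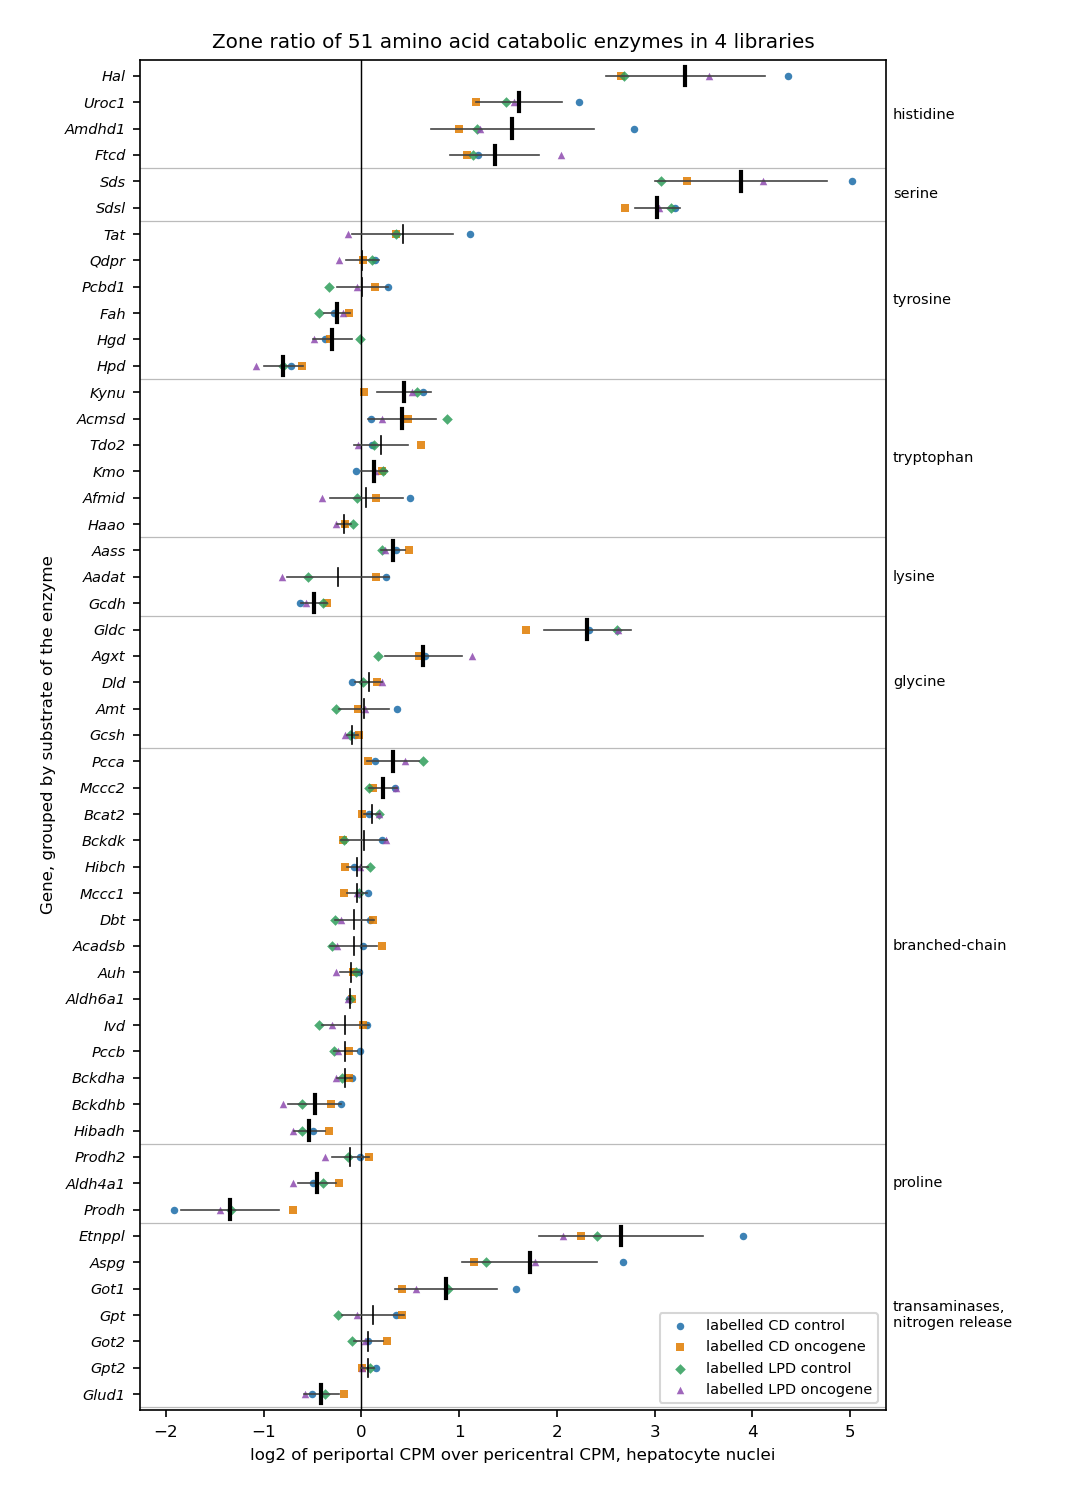
Log2 ratio of periportal over pericentral CPM for each of the 51 enzymes (rows, grouped by substrate) in the 4 libraries (coloured symbols). Vertical ticks are means, horizontal lines ± 1 SD (n = 4), and thick ticks mark enzymes with an adjusted p under 0.05. The histidine and serine enzymes, Gldc, Etnppl and Aspg lie far to the periportal side, Prodh to the pericentral side, and the branched-chain enzymes to both sides of 0.

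The histidine pathway was periportal at each of its 4 steps. Hal, histidine ammonia-lyase, opens it by removing ammonia from histidine. Hal was at 547, 815, 583 and 175 CPM in the periportal zone, and at 26.5, 129.6, 90.6 and 14.9 CPM in the pericentral zone. Every library therefore had far more Hal near the portal side, and the mean log2 ratio was 3.31 ± 0.82 (n = 4, 9.95-fold, edgeR adjusted p = 3.86e-06). Uroc1, urocanate hydratase, catalyzes the next step. Its levels were 452, 537, 465 and 304 CPM in the periportal zone against 96.2, 238, 167 and 103 CPM in the pericentral zone (1.61 ± 0.44, n = 4, edgeR adjusted p = 6.12e-06). Amdhd1, the imidazolonepropionase, followed with 427, 532, 524 and 237 CPM against 61.9, 267, 230.4 and 102 CPM (1.55 ± 0.83, n = 4, edgeR adjusted p = 0.000533). The library labelled CD control was the steepest for Amdhd1, with a log2 ratio of 2.79 where the others had 1.00 to 1.21. Ftcd, which transfers the last one-carbon unit of histidine to tetrahydrofolate, was at 674, 767, 476 and 305 CPM against 296, 362, 216 and 74.2 CPM (1.36 ± 0.45, n = 4, edgeR adjusted p = 1.38e-05). For Ftcd the steepest library was the one labelled LPD oncogene, at 2.04 against 1.08 to 1.19 in the others.

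The 250 bases upstream of the RefSeq start sites of these 4 genes (GRCm38.p6, which is the mm10 build) are printed because the genes shared a zone pattern, and those of Agxt and Got1 because these had the widest gaps of the list between the diets and between the CD libraries. Hal (chr10:93488768-93519304, plus strand) and Amdhd1 (chr10:93523338-93540033, minus strand) lie close together on chromosome 10. Each sequence runs 5′ to 3′ on the strand of its gene and ends at the base before the start site. Capitals mark 4 motifs searched on both strands, namely the TCF/LEF core CTTTGA, through which β-catenin acts, the core TGACG of the cAMP response element, the composite element TGATGNAA bound by ATF4, the transcription factor of the amino acid response, and the TATA box TATAAA.
Hal, chr10:93488518-93488767, plus strand: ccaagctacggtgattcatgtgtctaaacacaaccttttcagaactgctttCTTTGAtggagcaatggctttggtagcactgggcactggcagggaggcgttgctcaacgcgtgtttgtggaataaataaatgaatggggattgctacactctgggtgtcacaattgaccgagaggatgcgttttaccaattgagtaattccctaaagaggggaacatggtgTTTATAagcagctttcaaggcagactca
Uroc1, chr6:90333039-90333288, plus strand: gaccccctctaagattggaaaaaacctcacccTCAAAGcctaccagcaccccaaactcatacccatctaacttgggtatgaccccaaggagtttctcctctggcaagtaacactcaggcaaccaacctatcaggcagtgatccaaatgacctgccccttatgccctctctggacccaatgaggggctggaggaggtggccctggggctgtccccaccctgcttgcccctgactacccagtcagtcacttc
Amdhd1, chr10:93540034-93540283, minus strand: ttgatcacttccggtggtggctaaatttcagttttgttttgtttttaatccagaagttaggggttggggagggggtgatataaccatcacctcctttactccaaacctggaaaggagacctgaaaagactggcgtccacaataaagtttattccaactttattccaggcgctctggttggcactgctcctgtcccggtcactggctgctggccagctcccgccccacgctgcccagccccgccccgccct
Ftcd, chr10:76575398-76575647, plus strand: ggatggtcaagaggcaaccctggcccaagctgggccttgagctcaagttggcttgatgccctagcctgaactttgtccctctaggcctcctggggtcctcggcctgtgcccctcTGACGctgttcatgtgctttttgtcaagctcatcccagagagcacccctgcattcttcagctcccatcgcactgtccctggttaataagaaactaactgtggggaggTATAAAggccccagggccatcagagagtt
Agxt, chr1:93134990-93135239, plus strand: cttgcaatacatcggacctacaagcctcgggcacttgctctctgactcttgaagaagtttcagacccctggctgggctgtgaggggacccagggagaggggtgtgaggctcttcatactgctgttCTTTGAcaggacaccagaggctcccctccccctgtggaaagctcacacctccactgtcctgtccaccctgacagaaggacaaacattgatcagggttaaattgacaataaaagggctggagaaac
Got1, chr19:43524606-43524855, minus strand: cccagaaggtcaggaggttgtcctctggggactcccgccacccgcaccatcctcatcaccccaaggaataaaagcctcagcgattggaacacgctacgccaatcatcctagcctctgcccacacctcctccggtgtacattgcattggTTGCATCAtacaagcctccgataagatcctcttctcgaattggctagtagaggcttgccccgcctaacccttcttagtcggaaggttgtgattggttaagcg

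Positions are counted back from the start site to the first base of the match. Hal held the TCF/LEF core at -199 and the TATA box at -28. Uroc1 held the core at -218, and Ftcd held TGACG at -136 and the TATA box at -29. Agxt held the core at -125. Amdhd1 held none of the 4 motifs. Got1 was added to the printed set after its values were seen, and it held the ATF4 element at -102. A window was found for 46 of the 51 genes. The TCF/LEF core was in 9 of these 46 windows and in 13.8% of all 32851 windows of the table, TGACG in 5 (17.8%), the ATF4 element in 1 (3.45%) and the TATA box in 7 (12.4%). These matches describe the letters only.

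Serine breakdown was the steepest of all groups. Sds, serine dehydratase, which turns serine into pyruvate and ammonia, stood at 248, 403, 458 and 304 CPM in the periportal zone and at 7.64, 40.1, 54.7 and 17.6 CPM in the pericentral zone. The log2 ratio of Sds was 3.88 ± 0.88 (n = 4, 14.7-fold, edgeR adjusted p = 2.46e-06), the largest among the 51 enzymes. Sdsl, its less abundant relative, had 9.27, 32.2, 22.3 and 14.5 CPM against 1.005, 4.95, 2.48 and 1.76 CPM. The 4 libraries agreed closely for Sdsl, with a log2 ratio of 3.03 ± 0.23 (n = 4, edgeR adjusted p = 3.44e-06).

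In the glycine group, Gldc and Agxt were periportal, and the other subunits of the glycine cleavage system were not called. Gldc, the decarboxylase that commits glycine to cleavage, was at 194, 422, 236 and 175 CPM in the periportal zone against 38.5, 131, 38.5 and 28.4 CPM in the pericentral zone (2.31 ± 0.44, n = 4, edgeR adjusted p = 6.76e-07). Amt, Gcsh and Dld, which encode the remaining proteins of the same complex, had mean log2 ratios of 0.03 ± 0.26, -0.09 ± 0.06 and 0.07 ± 0.14. Agxt, which detoxifies glyoxylate by converting it to glycine, had a log2 ratio of 0.63 ± 0.39 (edgeR adjusted p = 0.000265).

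The group of transaminases and nitrogen release held 3 periportal enzymes and 1 pericentral one. Etnppl, a lyase of phosphoethanolamine from the same protein fold family as the transaminases, was at 67.1, 233, 401 and 56.6 CPM in the periportal zone against 4.49, 48.9, 75.4 and 13.5 CPM in the pericentral zone (2.66 ± 0.84, n = 4, edgeR adjusted p = 6.95e-06). Aspg, an asparaginase, had 386, 498, 872.5 and 436 CPM against 60.3, 224, 360 and 127 CPM (1.72 ± 0.69, n = 4, edgeR adjusted p = 8.47e-05). The cytosolic aspartate transaminase Got1 was periportal by 0.86 ± 0.52 (edgeR adjusted p = 0.00131), whereas its mitochondrial counterpart Got2 had a ratio of 0.07 ± 0.15 and no call. The alanine transaminases Gpt and Gpt2 were not called either, with 0.12 ± 0.32 and 0.06 ± 0.07. Glud1, glutamate dehydrogenase, was pericentral in each library, with a log2 ratio of -0.41 ± 0.18 (edgeR adjusted p = 0.00585).

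Proline and tyrosine breakdown held 2 and 3 pericentral enzymes and no periportal one. Prodh, the mitochondrial proline dehydrogenase, was at 60.5, 65.4, 40.5 and 24.6 CPM in the periportal zone and at 228, 106, 102 and 67.0 CPM in the pericentral zone. Its log2 ratio was -1.35 ± 0.50 (n = 4, edgeR adjusted p = 0.000103), the only pericentral one past 2-fold in the list. Aldh4a1, which takes the product of Prodh on to glutamate, was pericentral by a smaller margin (-0.45 ± 0.20, edgeR adjusted p = 0.00362), and Prodh2, which acts on hydroxyproline, was not called (-0.11 ± 0.19). Among the tyrosine enzymes, Hpd, Hgd and Fah were called pericentral, which are the dioxygenases of the steps after transamination and the final hydrolase. Hpd was the clearest of them at -0.80 ± 0.20 (edgeR adjusted p = 7.23e-05), while Hgd and Fah were at -0.30 ± 0.20 and -0.25 ± 0.13 (edgeR adjusted p = 0.0322 and 0.0331). Hgd lost its call in 7 and Fah in 8 of the 16 alternative settings, and Hgd changed sign with the held-out markers as ranking genes. Tat, the transaminase that starts the pathway, pointed the other way in 3 of 4 libraries and was not called (0.42 ± 0.52, edgeR adjusted p = 0.0521). The pterin enzymes Qdpr and Pcbd1, which recycle the cofactor of phenylalanine hydroxylase, were both at 0.01.

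**Figure D2:**
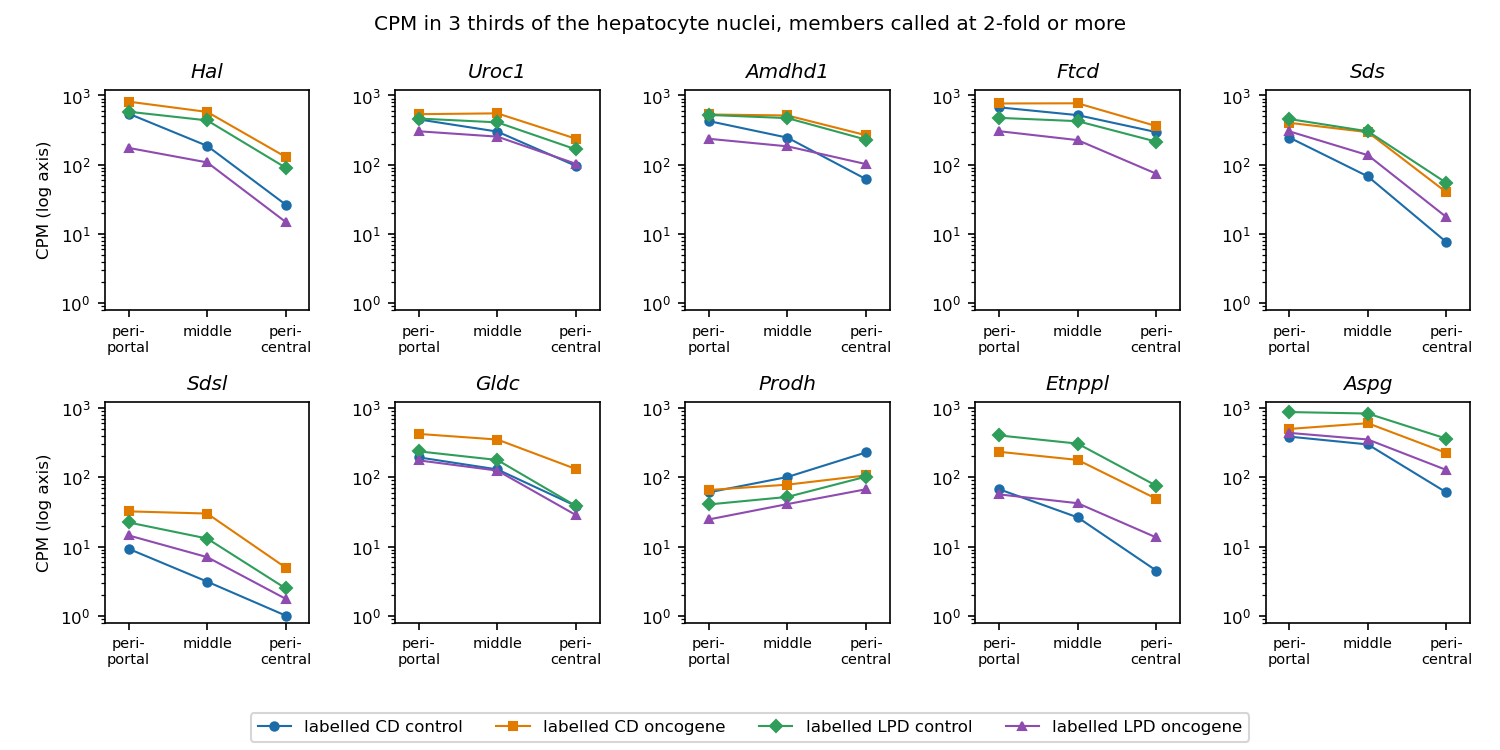
CPM (log axis, the same range in every panel) of the 10 enzymes called at 2-fold or more in the periportal, middle and pericentral zone of hepatocyte nuclei, with 1 line per library. The middle zone of Hal, Amdhd1, Sds, Sdsl, Gldc, Etnppl and Prodh lies between the outer zones in all 4 libraries, and Prodh is the one gene whose lines rise to the right.

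Tryptophan and lysine enzymes had shallow gradients. Kynu, kynureninase, was periportal by 0.43 ± 0.28 (edgeR adjusted p = 0.00366), although the library labelled CD oncogene showed a ratio of only 0.02. Kmo and Acmsd of the same pathway were called periportal at 0.13 ± 0.13 and 0.41 ± 0.35, both just past the threshold (edgeR adjusted p = 0.0455 and 0.0403). Tdo2, the first and committed enzyme of hepatic tryptophan breakdown, was not called (0.20 ± 0.28), nor were Afmid and Haao. In lysine breakdown, the first enzyme Aass was periportal (0.32 ± 0.13, edgeR adjusted p = 0.00319) and Gcdh, which acts late, was pericentral (-0.48 ± 0.13, edgeR adjusted p = 0.00041). Aadat, which transaminates 2-aminoadipate between them, was at 0.25 and 0.14 in the CD libraries and at -0.55 and -0.82 in the LPD libraries, and was not called.

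Of the 15 branched-chain amino acid enzymes, 4 were called, a share near the 21.9% of all genes, and 11 were not. Pcca and Mccc2, biotin-dependent carboxylase subunits of the late steps, were periportal at 0.32 ± 0.26 and 0.22 ± 0.14 (edgeR adjusted p = 0.00555 and 0.0094). Bckdhb, the E1 beta subunit of the branched-chain ketoacid dehydrogenase, and Hibadh of valine breakdown were pericentral at -0.48 ± 0.27 and -0.54 ± 0.16 (edgeR adjusted p = 0.00795 and 0.000604). Partner subunits differed: Pccb, which pairs with Pcca, was at -0.17 ± 0.12 without a call, and Bckdha, which pairs with Bckdhb, was at -0.17 ± 0.07 without a call. The median fitted log2 ratio over the 15 genes was -0.01, against 1.61 over the 4 histidine genes.

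Another 39 amino acid catabolic genes were taken as a comparison list, of which 36 were tested. There were 6 periportal and 7 pericentral calls among them. The largest periportal ratios belonged to Gls2, the liver glutaminase, at 2.91 ± 1.25, Kyat1 at 0.63 ± 0.28 and Qprt at 0.49 ± 0.19. Those on the pericentral side belonged to Oat, ornithine aminotransferase, at -3.69 ± 0.80, Csad of taurine synthesis at -1.73 ± 0.14 and Ppm1k, the phosphatase that activates the branched-chain ketoacid dehydrogenase, at -0.86 ± 0.37. Gls2 and Oat were also among the held-out zone markers, which were chosen for a known zone. The median absolute log2 ratio was 0.24 for the 51 enzymes, 0.14 for the comparison list and 0.15 for all genes tested.

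The gradients were steepest in the library labelled CD control for 8 of the 10 enzymes past 2-fold. In that library the median mitochondrial share of UMIs was 5.92% in the periportal and 1.02% in the pericentral zone. Zones were cut within each library on a score, the pericentral share of the zone marker UMIs. The boundaries lay at 0.47 and 0.87 in the library labelled CD control, and at 0.10 to 0.20 and 0.24 to 0.45 in the others. The part of mitochondrial share and of boundaries in these ratios was not tested. With only nuclei of at most 1% mitochondrial UMIs, 18 enzymes were periportal and 8 pericentral. Fewer genes were called under some settings. Without the library labelled LPD oncogene, 16 enzymes were periportal and 5 pericentral (all genes 8.7% and 8.23%). With the held-out markers as the ranking genes there were 18 and 4 (7.47% and 7.07%), and after thinning of every nucleus to 1000 UMIs 13 and 4 (5.72% and 4.68%). Without TMM factors all genes split into 1201 periportal and 1698 pericentral calls instead of 1494 and 1400, and the enzymes into 16 and 11.

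To compare the diets, each LPD library was set against each CD library. The 4 pairs do not depend on the injection labels being right within a diet. Per the study, the LPD supplied less energy from protein and more from carbohydrate, and these cannot be told apart here. Depth and mitochondrial share moved with diet and cannot be told apart from it, and intervals cover counting error only. An enzyme was counted when all 4 pairs were at least 1.5-fold apart in 1 direction on the log2(CPM + 5) scale. Of the 49 enzymes above the filter (at least 20 CPM and 50 UMIs in 1 library), 1 was counted higher on LPD and 4 were counted lower. The corresponding shares of all 7255 genes were 9.5% and 3.31%. Amt and Bckdk were below the filter. Agxt passed it only through the CD libraries, where it was high. Sdsl and Acmsd passed it only through the library labelled CD oncogene, where they were high. The median difference of all genes in the 4 pairs was 0.13 to 0.25 on the log2 scale toward LPD, and with TMM factors it was -0.01 to 0.05.

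Gpt2, the mitochondrial alanine transaminase, was the enzyme that was higher on LPD. It stood at 141 and 189 CPM in the CD libraries and at 448 and 475 CPM in the LPD libraries, 2.34- to 3.29-fold apart. The difference was present in every zone of the lobule, with log2 differences of 1.28 to 1.65 in the periportal, 1.19 to 1.76 in the middle and 1.19 to 1.78 in the pericentral zone. Gpt, the cytosolic isoenzyme, was at 59.9, 59.9, 92.0 and 63.9 CPM.

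Agxt had the widest gap between the diets, at 56.6 and 138 CPM on CD and at 8.46 and 7.56 CPM on LPD. Its folds ranged from 4.57 to 11.4, and the CD libraries also differed from each other. Aadat of lysine breakdown was at 142 and 189 CPM on CD against 58.7 and 57.4 CPM on LPD. Ivd, isovaleryl-CoA dehydrogenase of leucine breakdown, was at 126 and 164 CPM against 70.5 and 60.3 CPM. Hibadh of valine breakdown was at 333 and 395 CPM against 188 and 175 CPM. Within each zone, 1 enzyme was counted higher (all genes 10.5%, 9.24% and 8.48% in the periportal, middle and pericentral zone) and 5 were counted lower (all genes 3.28%, 3.24% and 3.34%). In the pericentral zone Acmsd was among the 5. Agxt, Aadat and Hibadh were lower in all 3 zones by the same rule, and Ivd was lower in the periportal and middle zones and just short of the fold in the pericentral zone.

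**Figure D3:**
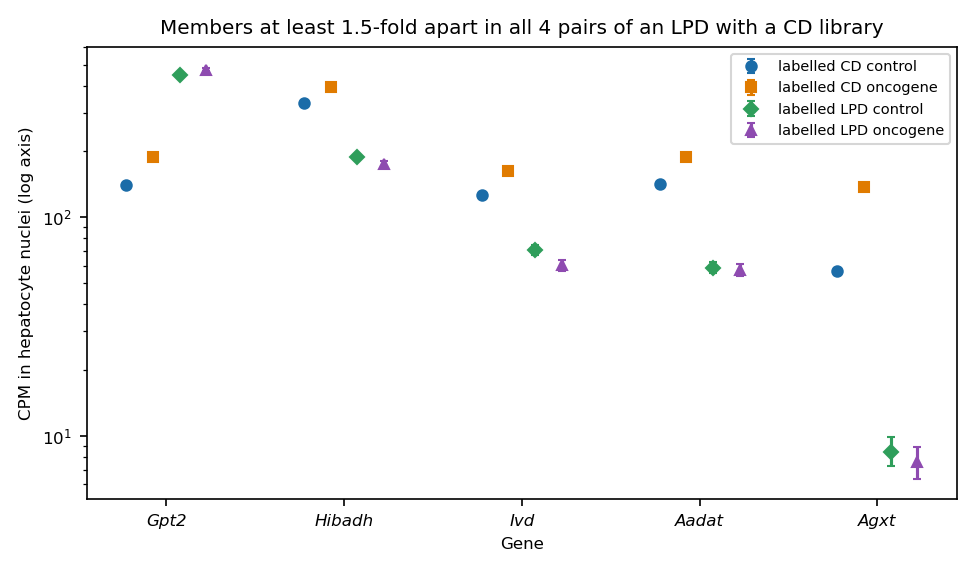
CPM in hepatocyte nuclei (log axis) of the 5 enzymes that were at least 1.5-fold apart whichever LPD library was set against whichever CD library. Symbols are single libraries and bars are exact 95% Poisson intervals, which cover counting error only. As that choice requires, both LPD libraries lie above both CD libraries for Gpt2 and below them for Hibadh, Ivd, Aadat and Agxt.

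A test with diet alone, chosen after seeing the data, set the 2 LPD libraries against the 2 CD libraries as replicates, although the libraries of a diet differ in injection, which left 2 residual degrees of freedom. Of the 49 enzymes, 5 fell on LPD (edgeR quasi-likelihood test, adjusted p under 0.05), where all genes gave 2.41%, and 0 rose, where all genes gave 2.38%. Agxt fell by 3.84 on the log2 scale (adjusted p = 0.0388), Aadat fell by 1.73 (0.037), Ivd fell by 1.37 (0.0474) and Hibadh fell by 1.22 (0.0481). Acadsb of valine and isoleucine breakdown, at 133 and 108 CPM on CD against 62.5 and 73.6 CPM on LPD, fell by 1.03 (0.0481). Gpt2, at 1.27, missed the threshold with an edgeR adjusted p of 0.0555. At an unadjusted p under 0.05 there were 1 higher and 19 lower enzymes, Acmsd among the lower, and all genes gave 15.2% and 15.1%. When LPD was paired with CD within each injection label, which leaves 1 residual degree of freedom and takes the doubtful CD labels as given, 0 enzymes passed in either direction (all genes 0.0276% higher and 0.0% lower). The edgeR adjusted p then was 0.069 for Agxt and Aadat and 0.088 for Gpt2. At an unadjusted p under 0.05 the paired test gave 1 higher and 13 lower enzymes, and all genes 13.9% and 13.1%.

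The count by fold depended on which libraries were compared, and leaving out a library asks for agreement of 2 pairs in place of 4. Without the library labelled CD control 13 enzymes were lower (all genes 5.86%), and without the one labelled LPD control also 13 (all genes 5.58%). Acmsd, which passed the filter only through the library labelled CD oncogene, was among the 13 in both cases. The count was 6 without the CD oncogene library (all genes 6.24%) and 6 without the LPD oncogene library (all genes 4.96%). Higher enzymes numbered 1, 1, 1 and 3 in the same order of omission, where all genes gave 18.0%, 13.6%, 14.2% and 14.2%. Gpt2, Agxt, Aadat, Ivd and Hibadh were counted in each of these settings. The rule fixes this in advance, because each omission keeps 2 of the same 4 pairs. TMM factors, which also moved the median of all genes as given above, gave 9 lower and 1 higher. The matching shares of all genes were not computed. The additional genes were Qdpr, Haao, Dbt, Acadsb and Pcca. In the comparison list of other catabolic genes, 33 were above the filter, 3 of them higher on LPD (Kyat3, Shmt2 and Csad) and 2 lower (Oat and Ppm1k).

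The injection pairs were compared next, within each diet. In the CD pair, 17 enzymes were at least 1.5-fold higher in the library labelled CD oncogene than in the one labelled CD control, and 0 were lower. Sdsl and Acmsd, among the 17, passed the filter on low values only through the library labelled CD oncogene, where they were high. All genes gave 6.22% higher and 7.69% lower. In the LPD pair, 0 enzymes were higher in the library labelled LPD oncogene and 17 were lower, where all genes gave 4.23% and 3.67%. Acmsd was among these 17 too, at 14.5 and 6.44 CPM, below the 20 CPM of the filter in both LPD libraries. The pairs share no library. In both, the library that held transgene UMIs, labelled CD control in one and LPD oncogene in the other, had the lower levels. With 1 library on each side, none of these differences has a replicate check.

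Of the 17 enzymes in each pair, 10 were common to both, and the matching share of all genes was not computed. They were Hal, Amdhd1, Sds, Hpd, Hgd, Kynu, Afmid, Acmsd, Etnppl and Aspg. Etnppl was the only one past 2-fold in both, at 34.7 and 147 CPM in the CD pair and at 258 and 38.2 CPM in the LPD pair. Its log2 differences were 1.94 and -2.61, and they kept their signs in all 3 zones (1.72 to 2.54 in the CD pair and -2.72 to -2.12 in the LPD pair). Hal was higher by 0.82 (1.77-fold) in the CD pair and lower by 3.55-fold in the LPD pair. The tyrosine enzymes Hpd and Hgd were 1.51- and 1.81-fold higher in the first pair and 2.09- and 2.26-fold lower in the second. In the LPD pair, all 4 histidine genes and 5 of the 6 tryptophan genes were lower, the low gene Acmsd among them.

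Some enzymes differed in a single pair. They are named here after their values were seen. Got1 was at 72.8 and 426 CPM in the CD pair, 5.54-fold apart, and at 81.9 and 79.8 CPM in the LPD pair, so the library labelled CD oncogene stood alone. Tat was at 622 and 174.5 CPM in the LPD pair, 3.49-fold apart, and at 298 and 444 CPM in the CD pair, just below the fold. Sdsl, Gldc, Agxt and Prodh2 were more than 2-fold higher in the library labelled CD oncogene and within 1.5-fold of each other in the LPD pair. Of 14 branched-chain enzymes above the filter, 1 (Auh) passed the fold in the CD pair and 0 in the LPD pair, where all genes gave 6.22% higher and 7.69% lower, and 4.23% and 3.67%. The other catabolic genes gave 6 higher and 1 lower in the CD pair and 1 higher and 5 lower in the LPD pair, of 33.

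**Figure D4:**
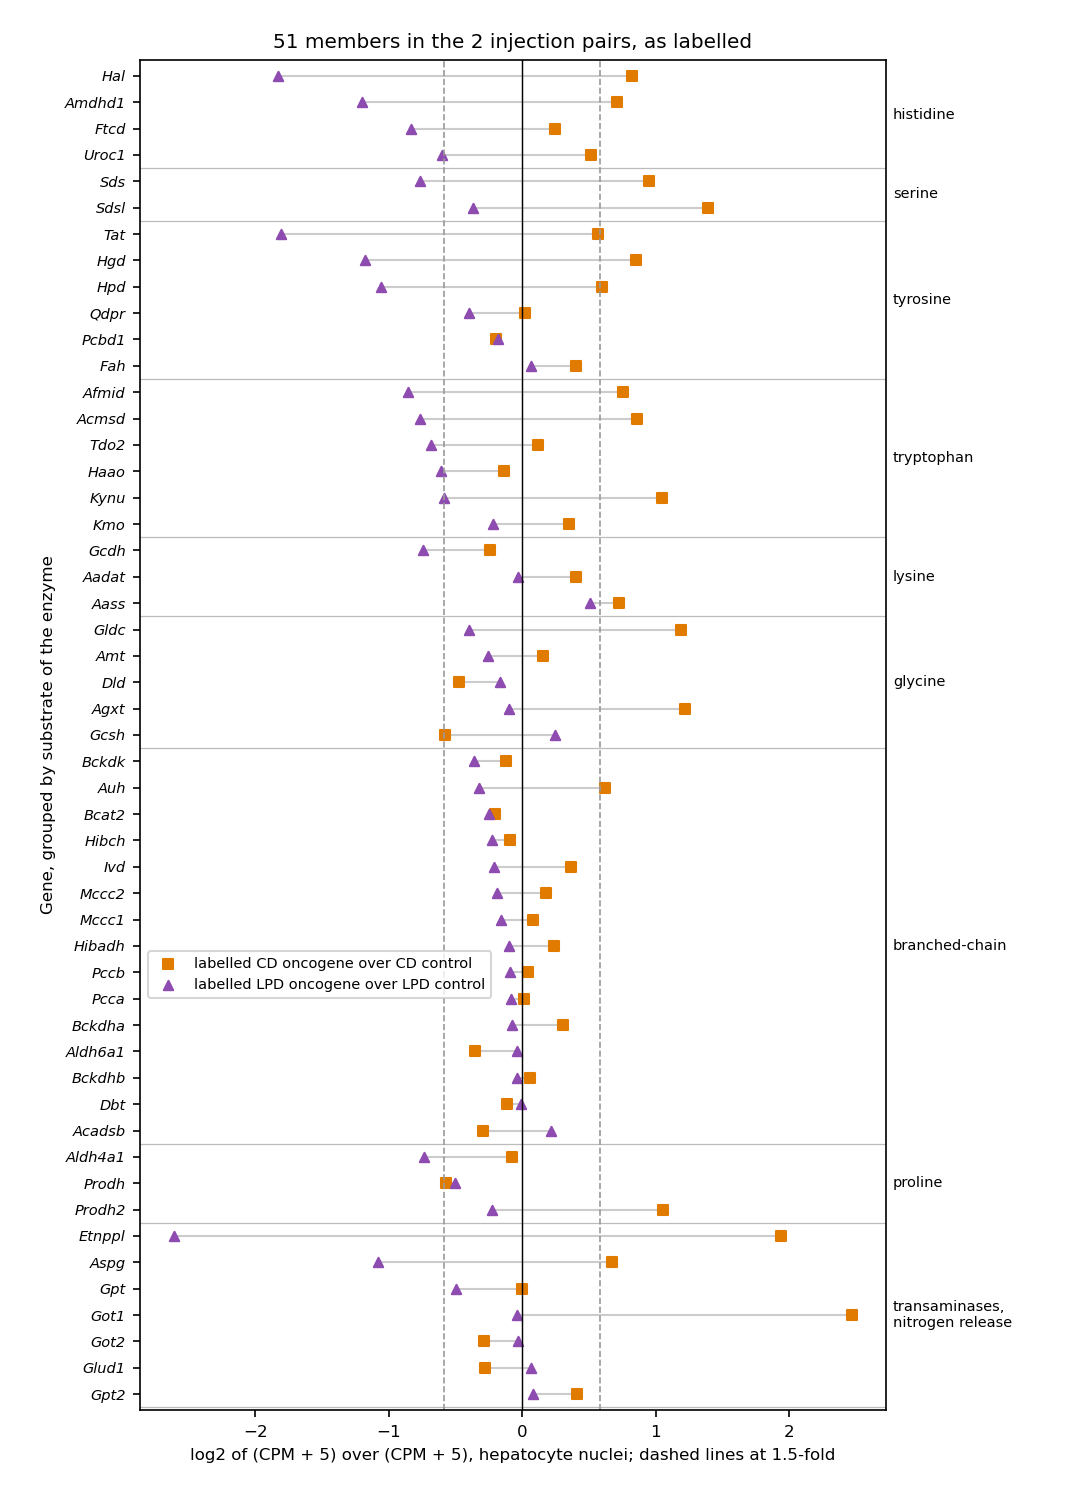
Log2 differences on the (CPM + 5) scale of the 51 enzymes between the libraries labelled CD oncogene and CD control (squares) and between those labelled LPD oncogene and LPD control (triangles). Dashed lines mark 1.5-fold. Histidine, serine, tyrosine and tryptophan enzymes lie mostly to the right in the CD pair and to the left in the LPD pair, and branched-chain enzymes lie within 1.5-fold in both except for Auh in the CD pair.

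The make-up of the hepatocyte class moved with these pairs. With the same zone boundaries for all libraries, 66.4% and 24.2% of the ranked nuclei of the CD pair and 14.8% and 30.6% of those of the LPD pair fell into the pericentral zone. The score behind the ranking adds 5 UMIs split by each library's own pericentral share, so equal marker counts can score differently between libraries. In each pair the library with transgene UMIs held the larger pericentral share, and its part in the differences was not tested. Within zones taken separately in each library, the CD pair gave 14 higher enzymes in the periportal, 18 in the middle and 17 in the pericentral zone, where all genes gave 6.69%, 6.58% and 7.25%. Lower ones numbered 1, 0 and 2 (Gcsh in the periportal, Gcsh and Prodh in the pericentral zone), where all genes gave 7.68%, 9.42% and 8.83%. The LPD pair gave 17, 16 and 13 lower enzymes, where all genes gave 4.55%, 4.59% and 4.4%, and 0 higher ones in each zone, where all genes gave 4.88%, 4.8% and 4.25%. Hal differed by 0.57, 1.60 and 2.09 in the periportal, middle and pericentral zone of the CD pair.

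Nuclei with a transgene UMI were examined in the library labelled CD control. There, 79 of the 86 positive hepatocyte nuclei were ranked into the pericentral zone, and the 2151 negative nuclei there served as the comparison. The ranking genes included Cyp2e1, Cyp1a2 and Lgr5, which the study found high in oncogene-expressing hepatocytes located mostly outside the pericentral area. The zone of a positive nucleus therefore does not give its place in the lobule. The positive nuclei were deeper, with a median of 7389 against 5472 UMIs. The study detected the transgene transcripts in few cells, so negative nuclei may include some that carry the transgene without a counted UMI. Genes needed at least 10 UMIs in the positive nuclei, a filter on that side only, which drops genes very low there. Sds, Sdsl, Amt, Bckdk and Etnppl did not reach it, here or over all hepatocytes. Of the 46 enzymes that did, 3 were higher and 7 lower beyond the 95% counting interval, with no adjustment over the 46. All 7638 genes with as many UMIs gave 7.65% higher and 4.73% lower. The lower ones were Uroc1, Amdhd1, Ftcd, Tdo2, Kynu, Gldc and Aspg, which except for Tdo2 were called periportal above. Amdhd1 was at 19.7 CPM in positive and 64.2 CPM in negative ones, which is -1.71 on the log2 scale (-2.55 to -0.98). Prodh, at 299 and 225 CPM, was higher by 0.41 (0.21 to 0.61), and Hibadh and Acadsb were higher by 0.17 (0.01 to 0.33) and 0.29 (0.01 to 0.55). Over all hepatocytes of that library, 7 enzymes were higher and 14 lower, and all 7832 genes gave 15.5% and 8.75%. Hal was at 25.8 and 279 CPM there, a log2 ratio of -3.43 (-4.12 to -2.82), the lowest of the 46 enzymes that reached 10 UMIs. Within the pericentral zone, where Hal had 14 UMIs in the positive nuclei, its interval spanned 0 (-1.44 to 0.21). These comparisons are within 1 library and say nothing of other mice.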

How the data were processed

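The authors deposited raw UMI counts per gene and nucleus. The headers of the deposited matrices name Cell Ranger 9.0.1, and the study's methods give mm10 with human c-MET and CTNNB1 added as the reference. Whether intronic reads were counted is not given in the sources used here. Groups were taken from the sample titles. Nuclei with 200 to 7000 genes and at most 21% mitochondrial UMIs were kept (9825 to 12552 per library, of 9826 to 13014 barcodes). Clustering followed the study's settings, with Harmony rewritten in numpy (scanpy 1.11.5, igraph 0.11.9). Of 19 clusters, 6 without markers of another class were taken as hepatocytes, clusters with mixed markers were removed as doublets, and a proliferating cluster was set aside. These thresholds were set after counts were seen. Scrublet marked 0 or 1 nuclei per library and so did not work. Of the hepatocyte nuclei, 799 to 1642 per library had under 5 zone marker UMIs and were not ranked. Between 12.5% and 24.3% of the ranked nuclei lay within 0.02 of a zone boundary.

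Zone differences were tested with edgeR 4.0.16 (quasi-likelihood, TMM factors, library plus zone) on UMI counts summed per library and zone. Nothing in the labels says that libraries came from separate mice of one group, so the spread is that between 4 differently treated libraries. The test was tested on simulated data. Library differences used log2 ratios with a pseudocount of 5 CPM, which understates changes of low genes. Intervals are exact 95% Poisson or conditional intervals and cover counting error only. The members and lists were chosen with earlier results of these data known. Values in every library are given for enzymes called at 2-fold or more by zone, counted by diet, or past 2-fold in both injection pairs. Alternatives were another normalization, tool, filter, pseudocount, ranking, doublet treatment and choice of nuclei, and omission of each library. An edgeR test of diet over the 4 hepatocyte sums, with and without the injection label as a block, and the settings without shallow clusters and with at most 1% mitochondrial UMIs were added after seeing the data. Protein sequences were not used here.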

Additional observations from a re-analysis of the deposited data

Results flagged for a closer look

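For Amdhd1, the library labelled CD control stood apart from the others in its periportal over pericentral log2 ratio, at 2.79 where the others had 1.00 to 1.21. For Ftcd the library labelled LPD oncogene stood apart, at 2.04 where the others had 1.08 to 1.19. These were 2 of 51 enzymes examined by Dixon's criterion, which chance alone meets in about 1 in 20 groups.

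For 10 enzymes the injection pairs went in opposite directions as labelled, each past 1.5-fold, and the difference between the pairs was not tested. The share of all genes that do so was not computed. Values are log2 differences of the oncogene label over the control label, first on CD and then on LPD. They were 0.82 and -1.83 for Hal and 0.71 and -1.20 for Amdhd1 of histidine breakdown, and 0.95 and -0.76 for Sds. Hpd had 0.60 and -1.06, and Hgd had 0.86 and -1.18. The tryptophan enzymes had 1.05 and -0.59 (Kynu), 0.75 and -0.86 (Afmid), and 0.86 and -0.77 (Acmsd, below 20 CPM in both LPD libraries). Etnppl had 1.94 and -2.61, and Aspg had 0.67 and -1.08. For all 10, the lower library of each pair was the one that held transgene UMIs, labelled CD control on CD and LPD oncogene on LPD.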

How the results depend on the processing

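Of the 26 zone calls, 15 held under all 16 alternatives, among them the 10 past 2-fold. Kmo lost its call in 10 of them, Fah and Acmsd in 8 and Hgd in 7. Hgd changed sign with the held-out markers as ranking genes (0.00302, without a call), and the cause was not tested. Pericentral calls numbered 9, and 4 with the held-out markers and 4 after thinning. Without 1 library they ranged from 5 to 8, and periportal calls from 15 to 16. The count of enzymes lower on LPD was 4, and it was 9 with TMM factors, 7 with at most 1% mitochondrial UMIs (chosen after seeing the data) and 6 to 13 without 1 library, while the count of higher ones was 1 to 3. Acmsd was among the 7. Shares of all genes were not computed for TMM factors or for the 1% limit. In the CD pair, 0 enzymes were lower. It was 2 (Gcsh and Prodh) with CPM over non-mitochondrial genes, with a pseudocount of 1 CPM, in strictly filtered nuclei, in hepatocytes chosen by marker, with at most 1% mitochondrial UMIs and in the pericentral zone. It was 1 with each nucleus's own CPM, without shallow clusters and in the periportal zone. In the LPD pair 13 to 17 were lower and 0 higher under every alternative run. Over all hepatocytes, 7 enzymes were higher and 14 lower in transgene-positive nuclei. In the edgeR tests chosen after seeing the data, diet alone gave 0 higher and 5 lower enzymes, and diet paired within injection label (the replicate block) 0 and 0. Depth limits the low genes most, such as Sdsl in the pericentral zone.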
